A study of Mus musculus with 2 samples.

Results

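The 44 collagen genes of the mouse were followed through total RNA-seq of the adrenal gland. They were every gene whose symbol is Col, a number, the letter a and a number, out of 55450 genes with a symbol in the files, and they fell into 11 fibrillar genes, 6 basement membrane genes (type IV) and 27 genes of other types. The mice were females of the hybrid strain B6CASTF1/J at an age of 2 months, and each library was made from 300 ng of RNA of the gland with ERCC spike-ins, in a procedure that lowers ribosomal RNA. There was no treatment and no control, and the 2 biological replicates of the single group are named animal 1 and animal 2 here. One label field gives both samples the same animal number while another gives them different numbers, and the biological replicate numbers were followed. The deposited files hold 2 quantifications of each library, and values are from the first unless the second is named. The libraries held 34517566 and 36234838 expected counts, the estimated reads per gene, and their counts had a chi-square of 77.3 per degree of freedom over 17298 genes, computed only to see whether 1 library had been deposited under both names. The tissue label was checked with steroid cell markers, and all 5 of them (Star, Cyp11a1, Cyp11b1, Hsd3b1 and Nr5a1) reached 1 TPM in both libraries and summed to 12461 and 14304 TPM. TPM is a level divided by transcript length and scaled to the same total in each library. Because the labels give 1 group, no test between groups was possible and no p-value is given. Differences between the animals are described beside their counting error and beside all other genes.

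Collagens are the main structural proteins of the extracellular matrix. Each is built of chains that wind around each other as a triple helix, in which glycine recurs every 3 residues because only its small side chain has room in the core. Fibrillar collagens form the banded fibrils of connective tissue, type IV collagen forms the network of basement membranes, and the other types form beaded filaments, link fibrils to each other, or sit in cell membranes. In the adrenal gland, collagen lies in the capsule, around the cords of steroid cells and in the basement membranes of the dense capillary bed.

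The repeat can be read in the coding exons, and the length of its unbroken run sets the fibrillar genes apart. For each of the pairs of chains on which the results turn, the first coding exon of 54 or 63 bases that was made only of whole glycine repeats is shown, on mm10 (GRCm38) in the sense of the gene, with the glycine codons in capitals. Col5a1 and Col4a2 lie on the plus strand and the others on the minus strand. The type V chains come first, then the type IV and the type VI chains.
Col5a3, chr9:20802458-20802520: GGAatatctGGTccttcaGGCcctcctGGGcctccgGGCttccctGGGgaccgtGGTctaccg
Col5a1, chr2:27958485-27958547: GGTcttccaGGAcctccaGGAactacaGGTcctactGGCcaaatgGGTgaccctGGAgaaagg
Col4a1, chr8:11245737-11245799: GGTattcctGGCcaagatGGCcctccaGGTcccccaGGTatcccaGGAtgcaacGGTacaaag
Col4a2, chr8:11403342-11403404: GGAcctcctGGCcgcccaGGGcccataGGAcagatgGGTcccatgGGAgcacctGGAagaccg
Col6a1, chr10:76719623-76719676: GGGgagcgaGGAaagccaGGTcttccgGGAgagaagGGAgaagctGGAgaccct
Col6a2, chr10:76611948-76612001: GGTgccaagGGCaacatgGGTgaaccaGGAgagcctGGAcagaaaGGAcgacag
The exons of Col5a3, Col5a1, Col4a1 and Col4a2 hold 7 repeats in 63 bases, and those of the type VI chains hold 6 in 54 bases. These single exons do not stand for the exon lengths of their classes. Col5a3 and Col5a1 have 31 and 29 coding exons of 54 bases and 1 of 63 bases each. Col6a1 and Col6a2 have 3 and 2 of 54 bases and 7 and 8 of 63 bases. The classes differed in how long the repeat ran without a break. In the longest coding sequence of each gene in GENCODE M21, the longest run of codon triplets that start with glycine had a median of 338 triplets in fibrillar genes (range 216 to 344, n = 11). In type IV genes the median was 43.5 (39 to 66, n = 6), and in the other types it was 45 (23 to 113, n = 27). Fibrillar genes had 21 to 33 coding exons of exactly 54 bases each, whereas type IV genes had 1 to 3 and the other types 0 to 28, the most in Col22a1. A median of 84.6% of the inner coding exons of fibrillar genes was a multiple of 9 bases long (range 76.6% to 90%), against 47.6% in type IV genes (40% to 58.1%) and 55.9% in the other types (0% to 80.8%, the highest in Col23a1). Of these measures, the length of the run alone set all fibrillar genes apart from the other types, and the type IV genes overlapped the other types in each.

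**Figure D1:**
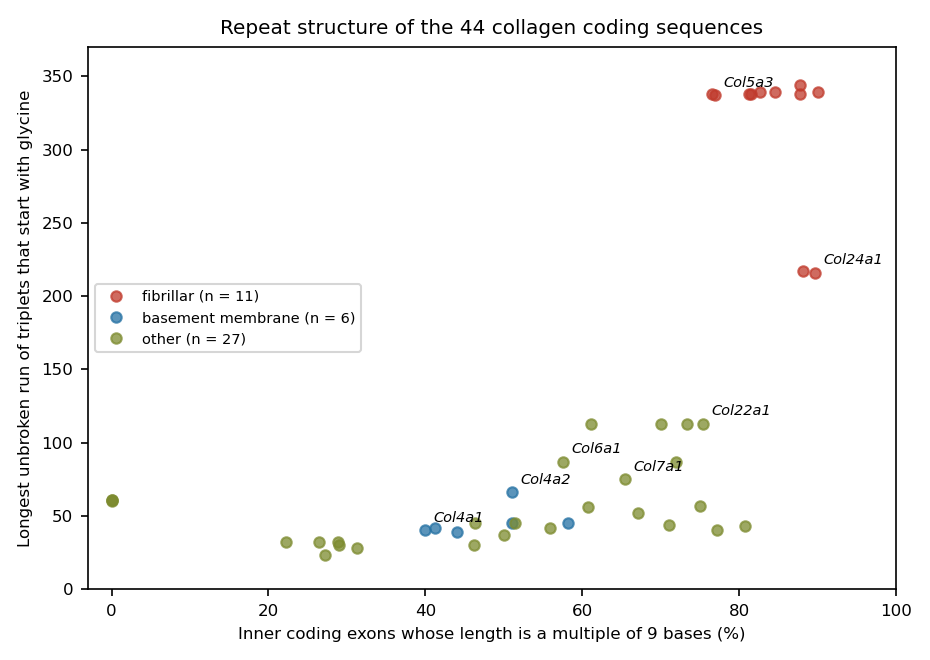
Each point is 1 collagen gene, placed by the percent of its inner coding exons whose length is a multiple of 9 bases (x axis) and by its longest unbroken run of codon triplets that start with glycine (y axis), coloured by class. The 11 fibrillar genes lie at 216 triplets or more and all other genes at 113 or fewer.

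Collagen transcripts were led by a small set of genes. The summed level over all 44 was 471 TPM in animal 1 and 478 TPM in animal 2, which was 0.141% ± 0.0101 (SD, n = 2) of what all nuclear protein-coding genes summed to. The 3 most abundant, Col5a3, Col6a1 and Col4a1, belong to different types and took 58.4% and 61.1% of the collagen TPM. In all, 23 genes reached 1 TPM in both libraries, 1 reached it in animal 2 alone and 20 stayed below it in both. Col9a1, a chain of cartilage type IX collagen, had 0 counts in both libraries, which allows up to 3 counts, or 0.0877 CPM (counts scaled to the library total) in animal 1 and 0.0834 CPM in animal 2. Such limits and the intervals below cover counting error only and not the spread between animals. They also make no allowance for copies made by PCR, which are counted as separate reads. Across the 44 genes, log2(TPM + 1) in the libraries had a Pearson r of 0.997, as a description of points that share genes, lengths and libraries.

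Fibrillar genes took 40.1% of collagen TPM in animal 1 and 37.1% in animal 2 (38.6% ± 2.12, SD, n = 2), type IV genes 29.7% and 29.6% (29.7% ± 0.109), and the other types 30.2% and 33.3% (31.8% ± 2.23). The order of the classes turned in the second quantification, with means of 36.0% for type IV, 35.2% for fibrillar genes and 28.8% for the other types. Fibrillar genes led there in animal 1 (37.5% against 35.2% for type IV) and type IV genes in animal 2 (36.9% against 32.9%). The other types were mostly type VI, at 20.9% and 24.6%. Of the fibrillar genes, 7 of 11 reached 1 TPM in both libraries, as did 4 of 6 type IV genes and 12 of 27 genes of other types. In bulk tissue, fewer cells of a type and less RNA per cell cannot be told apart, so these levels describe the tissue sampled and not its cells. Markers of fat, liver and, mainly in animal 1, kidney were also present, as given below. The part of such RNA in the collagen levels was not tested.

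**Figure D2:**
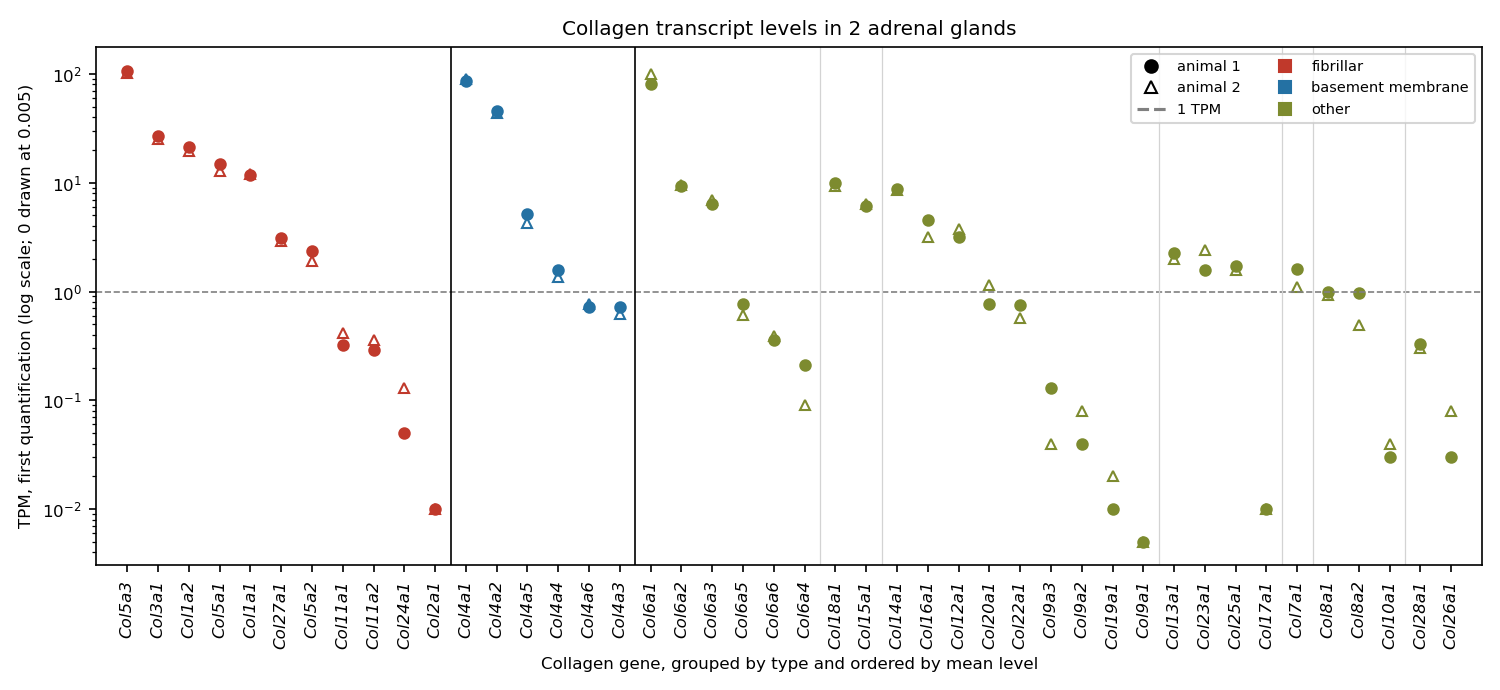
TPM of each of the 44 collagen genes (y axis, log scale, with 0 drawn at 0.005) in animal 1 (filled circles) and animal 2 (open triangles), grouped by type and coloured by class, with a dashed line at 1 TPM. Col5a3, Col4a1 and Col6a1 stand above the other members of their types, and Col9a1 is at 0.

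Among fibrillar collagens the most abundant was not a chain of type I or type III but Col5a3, the alpha 3 chain of type V collagen, a minor fibril component that is known to help set the diameter of fibrils. Col5a3 had 107 TPM in animal 1 and 102 TPM in animal 2 (104 ± 4.00, SD, n = 2), from 22214 and 19785 counts. It ranked 1 among the collagens by TPM and by counts in the first quantification and 2, after Col4a1, by TPM in the second, and it ranked 536 among nuclear protein-coding genes. Col5a1, the chain found in the common form of type V collagen, had 14.9 and 12.9 TPM, so that Col5a3 was 7.20 and 7.89 times its level. Col5a2, the partner of Col5a1, had 2.35 and 1.91 TPM, and the ratio of Col5a3 to it was 45.7 and 53.2. The order of the type V chains was the same in both animals, with gaps far wider than the difference between the libraries. In the second quantification Col5a3 led the type V chains as well, at 6.41 and 6.01 times Col5a1 in the second.

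Type III and type I collagen, the bulk fibrils of most connective tissue, stood lower. Col3a1 had 27.1 and 25.2 TPM (26.1 ± 1.29), Col1a2, the alpha 2 chain of type I, 21.5 and 19.5 TPM (20.5 ± 1.37), and Col1a1, its alpha 1 chain, 11.8 and 12.0 TPM (11.9 ± 0.134). Each of them was below Col5a3 in both libraries, and Col5a3 was 3.97 and 4.03 times Col3a1, or 5.16 and 6.87 times in transcripts of 2000 bases or more. Type I protein is made of 2 alpha 1 chains and 1 alpha 2 chain, while the transcripts showed the opposite order. Col1a1 stood at 0.548 of Col1a2 in animal 1 and 0.612 in animal 2 (0.580 ± 0.0454), and by counts it was 0.610 and 0.707. The remaining fibrillar genes were scarce. Col27a1 had 3.13 and 2.91 TPM. Col11a1 had 0.32 and 0.42 TPM and Col11a2 0.29 and 0.36 TPM, while Col24a1 and Col2a1, the main collagen of cartilage, had 4 counts or fewer in each library. Markers of cartilage and bone were likewise low, with 0 of 5 at 1 TPM in both libraries, a summed level of 1.84 and 1.51 TPM, and Matn1 at 0 counts in both.

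The sequence upstream of the RefSeq start of Col5a3 and of Col5a1 is given to set the most abundant type V chain and the next beside each other (GRCm38.p6, RefSeq, sense of the gene). Col5a3 lies on the minus strand and Col5a1 on the plus strand, and only bases in no annotated exon are printed. Capitals mark matches, on either strand, to the motifs searched, which were the TATA box (TATAAA), the CCAAT box (CCAAT), the GC box (GGGCGG) and the site of the steroid cell factor NR5A1 (CAAGGTCA or CAAGGCCA), none of which contains another.
Col5a3, chr9:20815068-20815317: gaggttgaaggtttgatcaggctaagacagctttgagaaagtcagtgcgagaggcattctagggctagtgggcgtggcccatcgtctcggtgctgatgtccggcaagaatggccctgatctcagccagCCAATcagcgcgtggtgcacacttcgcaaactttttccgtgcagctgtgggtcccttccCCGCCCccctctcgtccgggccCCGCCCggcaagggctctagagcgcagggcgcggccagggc
Col5a1, chr2:27886175-27886424: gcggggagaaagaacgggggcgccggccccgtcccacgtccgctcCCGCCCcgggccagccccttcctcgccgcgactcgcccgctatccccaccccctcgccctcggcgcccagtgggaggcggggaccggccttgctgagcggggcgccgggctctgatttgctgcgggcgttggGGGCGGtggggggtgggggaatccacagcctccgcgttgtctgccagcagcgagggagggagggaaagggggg
Col5a3 had 1 CCAAT box and 2 GC boxes in its 250 bases, and Col5a1 had 2 GC boxes and no CCAAT box. The bases were 62.8% G or C for Col5a3 and 76.4% for Col5a1. Neither held a TATA box or an NR5A1 site in these letters. Among 32817 promoter windows of 250 bases, 12.4% held a TATA box, 33.8% a CCAAT box, 32.7% a GC box and 3.28% an NR5A1 site. RefSeq windows were matched for 35 of the 44 collagen genes, some with more than 1 start. Of these 38 windows, 5 held a TATA box, 13 a CCAAT box, 22 a GC box and 2 an NR5A1 site. The window counts are over 250 bases each, whereas single genes are read only in bases outside annotated exons. Counts of the windows and of the printed stretches are therefore not on the same basis. A match is a description of letters and not a bound site.

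The basement membrane collagens were carried by a single pair. Col4a1, whose chains join those of Col4a2 in the type IV collagen of nearly all basement membranes, had 86.0 and 90.3 TPM (88.2 ± 3.03, SD, n = 2). Col4a2 had 45.9 and 43.9 TPM (44.9 ± 1.39). Together they made up most of the type IV sum of 140 and 141 TPM. The next was Col4a5 at 5.14 and 4.30 TPM, and Col4a6, its neighbour on the X chromosome, had 0.72 and 0.77 TPM. Col4a4 had 1.58 and 1.36 TPM and Col4a3 0.72 and 0.62 TPM, the chains that with Col4a5 form the basement membrane of the kidney glomerulus. The summed level of the 5 kidney markers was 19.9 in animal 1 and 0.46 TPM in animal 2, where Kap, Slc34a1 and Umod had 0 counts. The part of kidney RNA in the levels of these chains was not tested.

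The 6 type IV genes lie as head-to-head pairs, and the members of each pair stood at unequal levels. In GENCODE M21, Col4a1 (minus strand, starting at base 11312826 of chromosome 8) and Col4a2 (plus strand, starting at 11312805) overlap by 22 bases at their starts. Col4a4 and Col4a3 on chromosome 1 start 71 bases apart, and Col4a6 and Col4a5 on chromosome X start 1308 bases apart. Col4a1 was 1.88 and 2.06 times Col4a2, Col4a4 was 2.19 times Col4a3 in each animal, and Col4a5 was 7.14 and 5.58 times Col4a6. The whole stretch between Col4a4 and Col4a3 is short enough to print, in the sense of Col4a4 (GRCm38.p6, RefSeq), and held none of the motifs named above.
Col4a4 to Col4a3, chr1:82586850-82586920: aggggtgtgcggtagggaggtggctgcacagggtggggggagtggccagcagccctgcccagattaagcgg
Its 71 bases were 69.0% G or C.

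**Figure D3:**
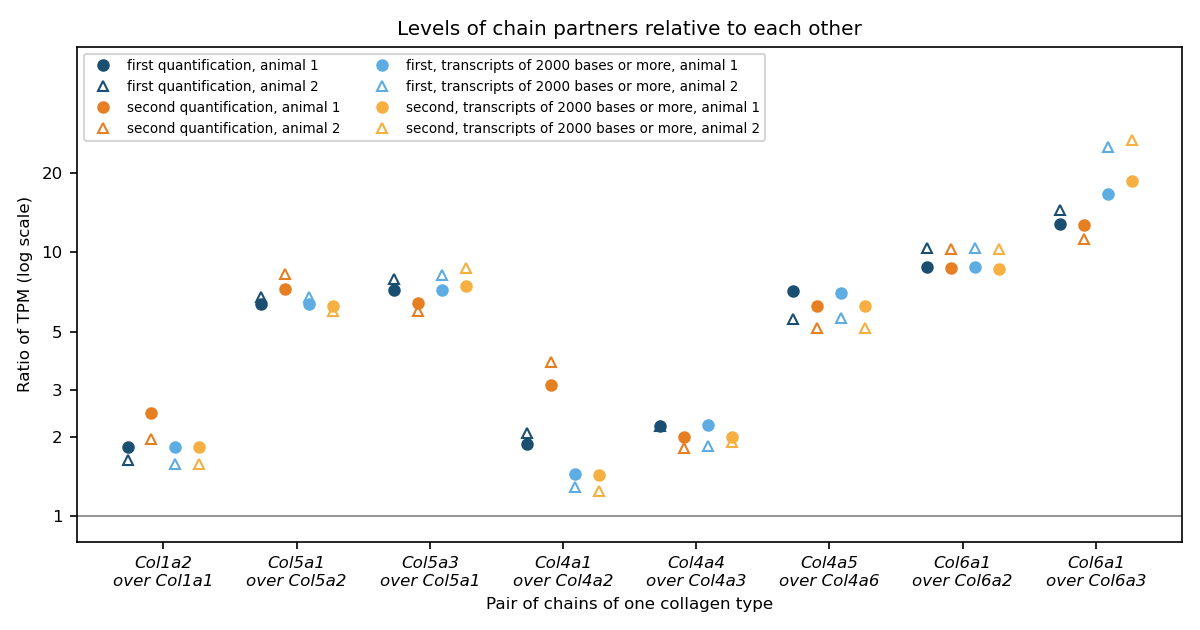
Ratio of the TPM of chain partners (y axis, log scale) in animal 1 (filled circles) and animal 2 (open triangles), by quantification and for transcripts of 2000 bases or more (colours). Col6a1 over Col6a2 lies between 8.65 and 10.4 in all settings, while Col4a1 over Col4a2 runs from 1.247 to 3.84.

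Type VI collagen, which forms beaded filaments close to cells, was uneven in its chains as well. Col6a1 had 81.5 and 99.8 TPM (90.6 ± 12.9, SD, n = 2), from 11352 and 13184 counts. Col6a2 had 9.23 and 9.58 TPM (9.41 ± 0.247) and Col6a3 6.37 and 6.87 TPM (6.62 ± 0.354), the chains with which the Col6a1 product is known to assemble. Col6a1 was thus 8.83 and 10.4 times Col6a2, and 12.8 and 14.5 times Col6a3, which became 16.6 and 25.005 times in transcripts of 2000 bases or more. The ratio to Col6a2 was 8.70 and 10.3 in the second quantification and 8.995 and 10.7 in counts. The chains that can take the place of Col6a3 were scarce. Col6a5 had 0.77 and 0.61 TPM, Col6a6 0.36 and 0.39 TPM and Col6a4 0.21 and 0.09 TPM, and the counts of Col6a5 and Col6a6, neighbours on chromosome 9, were not whole numbers. Col6a1 and Col6a2 lie close to each other on chromosome 10, from 76708792 to 76726168 and from 76595762 to 76623630, both on the minus strand. No other annotated gene overlaps either of them.

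The bases upstream of Col6a1 and Col6a2 are shown for the same reason as those of the type V chains, with the same motifs in capitals (GRCm38.p6, RefSeq). For Col6a1 only 126 of the 250 bases lie outside annotated exons.
Col6a1, chr10:76726169-76726294: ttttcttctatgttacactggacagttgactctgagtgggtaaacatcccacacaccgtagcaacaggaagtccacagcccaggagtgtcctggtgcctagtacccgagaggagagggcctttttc
Col6a2, chr10:76623631-76623880: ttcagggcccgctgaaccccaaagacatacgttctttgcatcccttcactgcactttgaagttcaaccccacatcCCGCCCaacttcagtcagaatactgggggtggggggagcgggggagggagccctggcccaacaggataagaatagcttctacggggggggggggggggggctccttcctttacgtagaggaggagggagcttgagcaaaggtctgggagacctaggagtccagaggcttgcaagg
Col6a2 had 1 GC box, and the shorter stretch of Col6a1 held none of the motifs.

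Order among the leading genes was not settled beyond the libraries. In animal 1 Col4a1 stood above Col6a1, and in animal 2 Col6a1 stood above Col4a1, while Col5a3 was first in both. In the second quantification Col4a1 was first in both, at 233 and 227 TPM, and Col5a3 had 179.7 and 143 TPM. Col6a1 (138.7 and 139.3 TPM) stood between Col5a3 and Col4a2 there, and Col18a1 stood above Col1a1. In the first quantification Col4a2 came next after Col5a3, Col6a1 and Col4a1 in both libraries, followed by Col3a1, Col1a2, Col5a1 and Col1a1. In transcripts of 2000 bases or more Col1a2 (20.9 and 18.9 TPM) stood above Col3a1 (20.8 and 14.8 TPM), and by mean counts the order was Col5a1 (3878), Col1a2 (3553) and Col3a1 (3455). The 13 genes with a mean of 5 TPM or more ended with Col18a1, Col6a2, Col14a1, Col6a3 and Col15a1, and Col4a5 (4.72 ± 0.594 TPM) lay just under that line.

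Of the multiplexins, which sit where basement membranes meet the surrounding matrix, Col18a1, the source of endostatin, had 10.04 and 9.25 TPM and Col15a1 had 6.09 and 6.40 TPM. Col14a1 was the only abundant member of the FACIT group (collagens that attach to the surface of fibrils), with 8.68 and 8.64 TPM. Col16a1 had 4.58 and 3.20 TPM and Col12a1 3.20 and 3.72 TPM, so that their order turned between the animals. By mean counts Col12a1 (859.5) stood above Col16a1 (344). The other 6 FACIT genes were at or below 1.15 TPM. Col20a1 had 0.76 and 1.15 TPM and Col22a1 0.75 and 0.57 TPM, while Col19a1 and the chains of cartilage type IX, Col9a1, Col9a2 and Col9a3, had 7 counts or fewer. Of the transmembrane collagens, Col13a1 had 2.24 and 1.98 TPM, Col23a1 1.58 and 2.39 TPM and Col25a1 1.72 and 1.56 TPM. Col17a1, of the hemidesmosomes that anchor epithelia, had 1 and 2 counts, and epithelial markers were at 1 TPM in 0 of 5 cases, with a sum of 1.91 and 1.27 TPM and Krt5 at 0 counts. Col7a1, of the anchoring fibrils below the epidermis, had 1.60 and 1.09 TPM. In transcripts of 2000 bases or more it had 0.61 and 0.36 TPM, so it reached 1 TPM only with its shorter transcripts. The short-chain collagens Col8a1 (0.99 and 0.93 TPM) and Col8a2 (0.97 and 0.49 TPM) and also Col28a1 (0.33 and 0.30 TPM) were below 1 TPM, and Col10a1 and Col26a1 had 4 counts or fewer.

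How a gene's reads were spread over its transcripts changed several of these levels. The 44 genes have 224 annotated transcripts here, 106 of them protein coding, 70 with a retained intron, 37 processed transcripts and 11 marked for nonsense-mediated decay. Transcripts under 2000 bases held 0.906% and 2.17% of the collagen counts but 8.25% and 11.8% of the collagen TPM. In the second quantification they held 1.31% and 3.33% of counts and 20.9% and 28.0% of TPM. Col5a3 was little touched, since Col5a3-201 (6119 bases) had 95.4% and 94.3% of its TPM in the first quantification and 94.8% and 93.7% in the second.

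Col4a1 was touched far more. Its full transcript Col4a1-201 (6615 bases) had 76.3% and 62.96% of the gene's TPM in the first quantification and 45.7% and 32.5% in the second. In animal 1 the rest lay mainly in Col4a1-203, 545 bases long, where 297 of 15275 counts gave 22.2% of the TPM, and that transcript was listed at 0 in animal 2. In animal 2 it lay in Col4a1-206, 1170 bases long, where 1101 of 13380 counts gave 34.5%, and that transcript was listed at 0 in animal 1. In the second quantification Col4a1-203 had 18.2% and 4.15%, and Col4a1-206 had 1.53% and 29.1%, so neither was at 0 there. Col4a1-204 (416 bases) had 20.8% and 16.2% there, and Col4a1-207 (618 bases) had 12.1% and 16.6%. With transcripts of 2000 bases or more, the ratio of Col4a1 to Col4a2 was 1.45 and 1.29 in the first quantification and 1.44 and 1.247 in the second, against 1.88 and 2.06, and 3.14 and 3.84, with all of them. Col4a1 ranked 3 among the collagens by TPM in the first quantification and 1 in the second, where Col5a3 ranked 2.

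Col18a1-202, Col4a1-201, Col5a1-201, Col1a2-201 and Col6a3-202 were the leading transcripts whose share differed most between the quantifications among genes at 5 TPM or more. The difference in mean share, second minus first, was -34.4 percentage points for Col18a1-202, -30.5 for Col4a1-201, -20.6 for Col5a1-201, -19.5 for Col1a2-201 and -16.4 for Col6a3-202. The shares of all 5 were thus lower in the second quantification. Col3a1-201 (5564 bases) had 76.5% and 58.1% of the TPM of Col3a1, and the 737 bases of Col3a1-205 had 6.87% and 27.9%, so that the TPM of Col3a1 in the animals was closer than its counts (4059 and 2851). With transcripts of 2000 bases or more alone, the mean level of Col3a1 was 17.8 TPM, that of Col6a3 4.44 TPM and that of Col15a1 4.12 TPM.

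**Figure D4:**
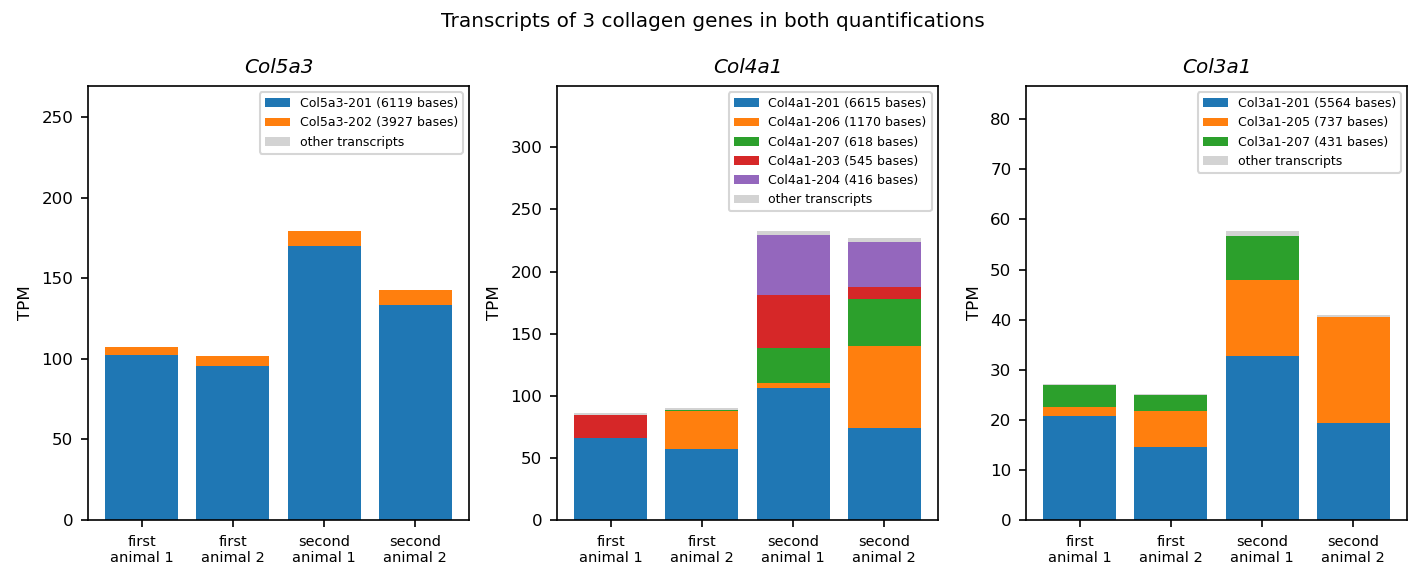
TPM of the transcripts of Col5a3, Col4a1 and Col3a1 (stacked bars, y axes from 0) in both quantifications and both animals. The full transcripts, in blue, make up nearly all of Col5a3 but between 32.5% and 76.3% of Col4a1. Some of its short transcripts differ between the animals, and others are present in both in the second quantification.

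Between the animals, most collagen genes had more scaled counts in animal 1. Among the 35 genes that averaged 10 counts or more, 28 had the higher value in animal 1 and 7 in animal 2, against 52.1% of all 17298 such genes higher in animal 1. The same count was 19 of 35 when the spike-ins set the scale, against 26.8% of all genes, and 22 of 35 by TPM, against 36.9%. As log2 ratio (animal 2 over animal 1) the collagen median stood at -0.21 and that of all genes at -0.02. The collagen median minus the median of all genes was -0.195, and it was between -0.195 and -0.212 with each of the other scalings and the second quantification. Below the median of all genes were 28 of the 35 under each scaling of the first quantification and 29 in the second. The 95% counting interval lay wholly on the side of animal 1 for 17 of the 35 genes, against 23.3% of all genes, and on the side of animal 2 for 4, against 21.6%. Of the 12 collagen genes that averaged 1000 counts or more, 11 were higher in animal 1, against 46% of all genes of that depth. The exception was Col6a1. When the spike-ins set the scale 6 of the 12 were higher in animal 1, against 14.9% of all such genes. By TPM it was 7, against 26.4%. Under each of these scalings 11 of the 12 lay below the median of all genes.

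Most of these differences were under 1.5-fold. Of the 31 collagens whose counts averaged 100 or more, 3 were over 1.5-fold higher in animal 1, against 395 of all 12166 genes (3.25%). In animal 2, 1 of the 31 was over 1.5-fold higher, against 296 of all 12166 genes (2.43%). At a limit of 25% higher, 10 and 2 of the 31 passed, against 1506 (12.4%) and 1124 (9.24%) of all 12166 genes. With spike-in scaling, and with TPM, 1 gene was over 1.5-fold higher in animal 1 and 2 in animal 2. The median log2 ratio of all genes with at least 10 counts then stood at 0.19 and 0.11. No share of all genes over 1.5-fold is given under these scalings. The level of Col8a2 (143 and 69 counts) in animal 1 was 2.09 times that in animal 2, with a 95% interval from 1.56 to 2.83. For Col7a1 (176 and 104 counts) the fold was 1.71 (1.33 to 2.20), and for Col16a1 (413 and 275 counts) it was 1.52 (1.30 to 1.77). Next in animal 1 came Col3a1 at 1.44-fold (1.37 to 1.51) and Col5a2 at 1.36-fold (1.19 to 1.55). In animal 2, Col20a1, with 76 and 124 counts, was 1.61-fold higher (1.20 to 2.18) and Col23a1, a transmembrane collagen with 307 and 439 counts, 1.41-fold (1.22 to 1.64). Col6a1 followed at 1.15-fold (1.12 to 1.18). Col6a5 (1.12-fold) and Col12a1 (1.04-fold) had intervals that spanned no difference, and their direction turned with TPM and with scaling by total counts respectively. The abundant genes differed little, with Col5a3 1.13-fold and Col4a1 1.15-fold higher in animal 1.

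**Figure D5:**
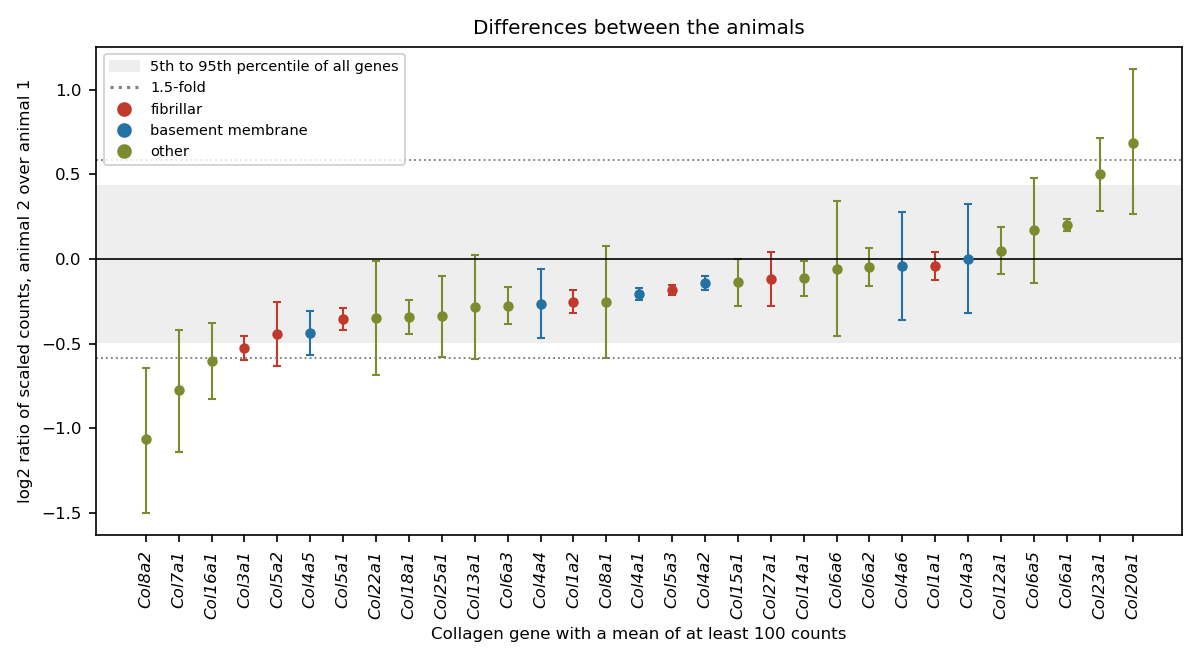
Log2 ratio of scaled counts of animal 2 over animal 1 (y axis) for the 31 collagen genes with a mean of at least 100 counts, with 95% counting intervals, coloured by class; the grey band is the range from the 5th to the 95th percentile of all genes and the dotted lines mark 1.5-fold. Most genes lie below 0 and inside the band, with Col8a2, Col7a1, Col16a1 and Col3a1 below it and Col23a1 and Col20a1 above it.

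Markers of cells known to make collagen were counted in the same way. Their sums are in TPM, of which the abundant RNAs Rn7s1 and Rn7s2 took 33.1% in animal 1 and 20.4% in animal 2, and nuclear protein-coding genes 31.7% and 35.6%, and the median log2 ratio of TPM, animal 2 over animal 1, was 0.11 over all genes. Of the 8 markers of fibroblasts and capsule, 3 had the higher value in animal 1 and 5 in animal 2 (sums of 132 and 155 TPM). Of the endothelial markers 5 of 6 were higher in animal 2 (170 and 191 TPM), and of the mural and smooth muscle markers 8 of 10 (85.0 and 91.5 TPM). Counted against the median of all genes, 5 of 8, 5 of 6 and 8 of 10 stood above it. With scaling to total counts the fibroblast list split into 4 and 4. No marker of these lists was at 0 counts in both libraries. Among tissues beside the gland, all 6 brown adipocyte markers were higher in animal 2 (653 and 1270 TPM), and all 5 kidney and all 4 liver markers were higher in animal 1 (liver sums of 168 and 107 TPM), with 4 of the 5 kidney markers when the spike-ins or TPM set the scale. Chromaffin cell markers were higher in animal 1 in 5 of 5 cases (1814 and 1481 TPM), and of Schwann cells in 4 of 5 (10.3 and 8.90 TPM). General adipocyte markers were higher in animal 2 in 4 of 6 cases (2319 and 2720 TPM), steroid cell markers in 3 of 5, and of the 4 skeletal muscle markers only Myl1 passed 1 TPM, at 5.25 and 7.08 TPM, while Ckm, Acta1 and Myh4 had 4 counts or fewer in each library. The part of these cells and tissues in the collagen differences was not tested.

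The genes that build, bind and break down collagen were described by lists. Of 19 genes for the modification and folding of chains, 18 reached 1 TPM in both libraries. P4hb, a subunit of prolyl 4-hydroxylase, had 166 and 160 TPM, Serpinh1, the collagen chaperone HSP47, 85.7 and 123 TPM, Ppib, a prolyl isomerase, 96.6 and 84.9 TPM and Plod2, a lysyl hydroxylase, 67.0 and 71.6 TPM. P4ha3, another hydroxylase subunit, was the least abundant at 0.20 and 0.08 TPM. Of the 18 with enough counts for a ratio 12 were higher in animal 1, which turned to 6 with spike-in scaling and 8 with TPM, and 12 lay below the median of all genes under each scaling. None of these 18 passed 1.5-fold. Of all genes with enough counts, 26.8% were higher in animal 1 by the spike-ins and 36.9% by TPM. For the removal of propeptides and for cross-linking, 9 of 12 genes reached 1 TPM, led by Pcolce, which enhances propeptide cleavage, at 343 and 415 TPM. The protease Bmp1 had 12.0 and 13.9 TPM. Of the lysyl oxidases, Loxl1 had 7.84 and 8.59 TPM, Loxl2 5.98 and 5.65, Lox 1.89 and 2.50 and Loxl3 0.71 and 0.39 TPM. This list split evenly between the animals, 6 and 6, which became 3 and 9 by the spike-ins and 4 and 8 by TPM. It held 1 gene over 1.5-fold higher in animal 1, against 3.25% of all genes, the lysyl oxidase Loxl4 at 5.08 and 2.99 TPM. Of 10 collagen receptors 5 reached 1 TPM, with the integrin Itgb1 at 87.0 and 82.2 TPM and its collagen-binding partner Itga1 at 8.78 and 11.2 TPM, whereas Gp6, the receptor of platelets, had 0.04 and 0.14 TPM. Of the 9 receptors with enough counts 6 were higher in animal 1, but 1 by the spike-ins and 2 by TPM. Of 11 genes for breakdown 7 reached 1 TPM, led by the inhibitors Timp3 (128 and 147 TPM) and Timp2 (30.8 and 31.1 TPM), and 5 of 11 were higher in animal 1, but 1 by the spike-ins and 4 by TPM.

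All 12 proteins that coat or bind fibrils reached 1 TPM, led by Sparc, a collagen-binding glycoprotein, at 917 and 1047 TPM, with the small proteoglycans Bgn at 92.4 and 126 TPM and Dcn at 59.0 and 72.3 TPM. Dcn and Lum are also among the markers of fibroblasts and capsule, so that list and the fibril list are not separate observations. In the fibril list 1 of 12 was higher in animal 1, against 52.1% of all genes, and 11 in animal 2, between 9 and 12 under the other scalings and the second quantification, and their median was 0.12 on the log2 scale. The 11 with at least 100 counts held 1 gene over 1.5-fold higher in animal 2, against 2.43% of all genes, Prelp, a proteoglycan of basement membranes, at 11.7 and 19.0 TPM.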

How the data were processed

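Total RNA-seq of 2 adrenal glands was analysed. Per the labels' protocols the library kit was directional. The deposited expected counts and TPM come from 2 quantifications per library on mm10 with GENCODE M21, as a deposited text file states. The first, with column names of RSEM per the file headers, used transcriptome alignments; the second, with column names of kallisto, used the reads directly. The sources used here do not give versions or the strand setting. For each transcript the authors deposited its percent of the gene's TPM. Effective lengths were 99 bases under the transcript length in the first, and 327 and 316 bases in the second, which weights short transcripts differently. CAST reads were counted on C57BL/6J sequence.

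Symbols came from the target names of the second quantification, and 86 of 55536 gene rows had none and were left out. Levels are deposited TPM of the first quantification. Expected counts were rounded for scaling (edgeR 4.0.16, trimmed mean of M-values, factors of 1.02 and 0.981) and intervals. Log2 ratios used a prior of 0.5 counts, and intervals at 95% are exact Clopper-Pearson intervals turned into ratios. In counts simulated for animal 2 over animal 1 on 55450 genes, 100% of genes changed 4-fold came out over 1.5-fold, and 82% of those changed 2-fold. So did 16.3% of unchanged genes at a coefficient of variation of 0.2. That spread was set and not estimated from these libraries. In them 3.25% of all genes were over 1.5-fold higher in animal 1 and 2.43% in animal 2. The changed genes were drawn from genes with more counts than Col8a2, Col7a1 or Col20a1 averaged. Alternatives were DESeq2 1.42.0 size factors, spike-ins, total counts, TPM, other limits and transcripts of at least 2000 bases. All members were accounted for, with single values from 5 TPM, and the text names the 5 largest ratios in each direction. Members and lists were chosen with earlier results of these data known.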

Additional observations from a re-analysis of the deposited data

How the results depend on the processing

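The share of collagen in nuclear protein-coding TPM (0.141%) was 0.0474% of the TPM of all rows and 0.363% in counts not divided by length, and 0.134% to 0.148% when each animal was left out. The fibrillar share of collagen TPM (38.6%) was 35.2% in the second quantification, 42.7% in counts, 35.0% without Col3a1 and 21.2% without Col5a3, the latter chosen after seeing the data, and 37.1% to 40.1% with 1 animal left out. The basement membrane share (29.7%) was 36.0% in the second quantification, 30.5% in protein-coding transcripts, 30.9% in counts and 26.5% in transcripts of at least 2000 bases, a limit also added after seeing the data, with 29.6% to 29.7% over single animals. The ratio of Col1a1 to Col1a2 (0.580) was 0.459 in the second quantification and 0.548 to 0.612 over single animals. The ratio of Col4a1 to Col4a2 (1.97) was 3.49 in the second quantification, 1.37 and 1.34 in transcripts of at least 2000 bases of the first and second, 1.48 in counts and 1.88 to 2.06 over single animals. Genes at 1 TPM (23) were 23 to 24 over single animals, and 13 reached 5 TPM. The median log2 ratio kept its sign in all 6 alternatives and was -0.01 with spike-in scaling, where that of all genes was 0.19. Collagen genes over 1.5-fold higher in animal 1 (3, beside 3.25% of all genes) were 1 with spike-ins, 1 with TPM and 4 at a minimum of 10 counts. They were 10 at 25% higher (12.4% of all genes). Those higher in animal 2 (1, beside 2.43% of all genes) were 2 with spike-ins, 2 with TPM and 2 at a minimum of 10 counts. They were 2 at 25% higher (9.24% of all genes). With spike-ins, TPM or the minimum of 10 counts no share of all genes is given, so those counts cannot be set beside all genes. Of 50 alternative ratios of the 10 named genes, 2 reversed, Col6a5 to -0.33 with TPM and Col12a1 to -0.0067 with total counts, 4 fell below 1.5-fold and 2 rose above it. Where a cause is not named, the cause was not tested. Genes under 10 counts allow no statement on differences. No paired analysis was possible because the labels give 1 group.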

Other observations

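Of the 13 collagen genes at 5 TPM or more, Col3a1 holds the annotated miRNA gene Gm47302 on its own strand (45311673 to 45311813 of chromosome 1), to which 65.6 and 37.5 counts were assigned, 44.7 and 27.0 TPM. Neither count was whole, and neither were the counts of Col3a1, so the reads of the overlap could not be told apart. Col18a1 overlaps the folate carrier gene Slc19a1 on the opposite strand, which had 481 and 379 counts. The sources used here do not give the strand setting of the counting, so reads in their overlap may be uncertain, as may those in the 22 bases shared by Col4a1 and Col4a2. The other genes that overlap a collagen gene of this level held 26 counts or fewer in each library.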
